A study of Mus musculus with 8 samples.

Results

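Tip endothelial cells (ECs) are the leading cells of a vascular sprout. Here they were the 508 cells, of 8204 sorted from mouse breast tumours, that carried at least 1000 genes, a UMI (unique molecular identifier, 1 counted mRNA molecule) of the endothelial gene Pecam1, UMIs of at least 4 of the 6 genes Pgf, Adm, Apln, Slc16a3, Trp53i11 and Cxcr4, and UMIs of fewer than 2 of the proliferation genes Mki67, Top2a and Birc5. These measured values chose the cells, so the high levels of those 6 genes and the low levels of the proliferation genes are a description and are tested nowhere in the tip cells. They were set against the 5399 other ECs, which passed the same limits on genes, Pecam1 and proliferation genes but carried 3 or fewer of the 6 markers. Of the tip cells, 257 carried 4 markers, 159 carried 5 and 92 carried all 6, and 475 cells just outside the rule carried 3.

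The single-cell RNA sequencing data (10x Chromium, 3′ chemistry) came from live CD45-/CD31+ cells of 2 adult tumour models, with 2 libraries for each of 4 groups. Spontaneous tumours arose in MMTV-PyMT mice, in which the mammary tumour virus promoter drives the polyoma middle T oncogene in mammary epithelium. Implanted tumours grew from MMTV-PyMT tumour cells that were expanded in culture and placed with Matrigel in the mammary fat pad. Each tumour was injected with PBS or with cGAMP, a cyclic dinucleotide that activates the innate immune receptor STING, and was taken hours later. A group is named by its model and its injection (for example, implanted PBS). The labels give C57BL/6 for all libraries and the methods of the study name FVB mice, so the strain is not settled, though each source gives 1 strain for all groups.

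A tip cell extends filopodia toward a gradient of vascular endothelial growth factor (VEGF), loosens and rebuilds basement membrane, and holds back its neighbours from the tip position by Dll4-Notch signalling, while stalk cells behind it divide and form the lumen. Its genes include the VEGF-family ligand Pgf (placental growth factor), the vasoactive peptides Adm (adrenomedullin) and Apln (apelin), and the chemokine receptor Cxcr4, which reads Cxcl12. Slc16a3 exports lactate, the end product of the glycolysis on which migrating ECs rely, and Trp53i11 is a p53-induced protein. Hypoxia, common in tumours, induces several of these genes through hypoxia-inducible factors, which bind short ACGTG sites.

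Tip cells numbered 27 to 109 per library and were deep, with a median of 14270.5 to 25111.5 UMIs per cell and 12283751 UMIs in all, against medians of 7134 to 14810 UMIs in the other ECs. A rule that asks for detected genes favours deep cells. The share of tip cells was therefore also called anew in cells thinned to 3000 UMIs. Gene results in thinned cells still use the tip cells chosen at full depth, so they do not remove depth from that choice. Gene levels of tip cells against other ECs, and by number of markers, are given at full depth only. Replicate 1 of implanted cGAMP stood apart, with 2025 cells and a median of 2014 UMIs per cell over all its cells, against 8803.5 to 13148 in the other libraries. Of 8197 distinct barcodes, 7 occurred in more than 1 library. Epithelial marker genes summed to 146 to 676 CPM (each cell's UMIs scaled to one fixed total, averaged over cells) in tip cells and 278 to 1618 in the other ECs. Immune markers summed to 14.8 to 232 and 22.6 to 233 CPM, and mural markers to 84.4 to 983 and 212 to 989 CPM. The mural markers differed between groups and are given beside the results they move with. Immune markers differed too, at 22.2 and 14.8 CPM in tip cells of implanted PBS and 232 and 79.0 CPM in implanted cGAMP. In spontaneous tumours they were at 21.7 and 22.6 CPM and then 49.6 and 38.6 CPM.

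The label was checked on genes that the rule did not use. All 10 pan-endothelial genes were detected in tip cells of each library, with summed levels of 6273 to 7992 CPM. The other 20 genes of a tip-cell list summed to 6653 to 14021 CPM in tip cells and 5097 to 8277 CPM in other ECs. Tip cells exceeded the other ECs of their own library in 8 of 8 libraries for 10 of these 20 genes, against 9.13% of the 6902 genes compared, and were below in 8 of 8 for 1. Angpt2, which opens the vessel wall to sprouting, was among them (median log2 ratio 1.69, 0.69 to 3.23, here and below the lowest and highest of the 8 libraries), as were Esm1, a VEGF-induced proteoglycan (median log2 ratio 1.89, 0.72 to 2.80), and Nid2, a basement membrane nidogen (median log2 ratio 1.44, 0.73 to 2.02). A list of tumour and immature capillary genes, among them Kit, Nos2 and Bmp2, was raised in these cells too, with 4 of 8 genes higher in each library and 1 lower and a median log2 ratio of 1.18 beside 0.62 for the tip-cell list. The cells thus carried genes of both lists. The VEGF receptor Kdr was not raised (median log2 ratio -0.17, -0.62 to 0.12), and Efnb2 was lower (median log2 ratio -0.88, -1.77 to -0.18). These ratios describe cells picked by their own expression and carry no test.

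The 6 marker genes were found in different shares of tip cells. Trp53i11 (mm10, chr2:93187548-93201759, plus strand) had a UMI in at least 95.4% of the tip cells of each library and in 26.5% to 53.0% of other ECs, and Adm (chr7:110627661-110629820, plus strand) in 81.5% to 87.3% and 6.92% to 12.9%. Pgf (chr12:85166635-85177790, minus strand) was the marker found in the smallest shares, 37.0% to 65.8% against 2.69% to 10.6%. The ranges were 64.8% to 84.5% for Apln (chrX:48025146-48034853, minus strand), 65.5% to 92.6% for Cxcr4 (chr1:128588199-128592293, minus strand) and 51.9% to 86.9% for Slc16a3 (chr11:120948480-120960868, plus strand). The rule gathered cells of several marker combinations, nearly all of them with Trp53i11. In the 289 sorted cells with 1000 or more genes and no Pecam1 UMI, in which free RNA and other cell types count, the shares were 4.55% to 32.4% for Pgf and 11.5% to 35.0% for Trp53i11, at median depths of 2372.5 to 7837 UMIs. With cells thinned to 3000 UMIs, Pgf was found in 7.69% to 43.9% of tip cells and 1.11% to 5.97% of other ECs.

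Levels of the markers in tip cells varied with the injection. Pgf averaged 199 and 77.4 CPM in the spontaneous PBS libraries, 359.9 and 327 CPM after cGAMP, 173 and 72.6 CPM in implanted PBS and 367 and 389 CPM after cGAMP, and the PBS and cGAMP libraries did not overlap, a description only, since detected Pgf helped to choose the cells. Adm averaged 216 and 243 CPM, 321 and 238 CPM, 237 and 203 CPM and 396 and 482 CPM in the same order, and the spontaneous groups overlapped. Slc16a3 gave 138 and 70.4 CPM, 122 and 99.4 CPM, 89.1 and 78.2 CPM and 224 and 336 CPM, separated only in the implanted model. Apln gave 416 and 394 CPM, 414 and 331 CPM, 360.3 and 255 CPM and 632 and 698 CPM, higher after cGAMP only in the implanted model. Trp53i11 gave 852 and 803 CPM, 632 and 714 CPM, 817 and 616 CPM and 970.3 and 1087 CPM, lower after cGAMP in the spontaneous and higher in the implanted model without overlap. Cxcr4 gave 314 and 398 CPM, 271 and 308 CPM, 257 and 209 CPM and 308 and 197 CPM, lower after cGAMP in the spontaneous model and overlapping in the implanted one.

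Beyond the marker genes, tip cells differed from the other ECs of their library in many genes, given here as a description because the same expression chose the cells. In 8 of 8 libraries 630 genes (9.13%) were higher in tip cells and 627 (9.08%) lower. The genes with the largest ratio in their least favourable library were headed by Kit, the stem cell factor receptor (195.2 ± 39.8 against 45.2 ± 10.2 CPM, mean ± SD over 8 libraries). They also held Chst1, a sulfotransferase (116 ± 22.9 against 23.9 ± 4.49 CPM), Fscn1, the actin-bundling protein of filopodia (508 ± 131 against 159 ± 39.4 CPM), the metalloprotease Adamts7 (97.8 ± 30.6 against 19.3 ± 3.24 CPM) and the intermediate filament gene Nes (343 ± 127 against 123 ± 34.6 CPM). Nos2, the inducible nitric oxide synthase (56.6 ± 14.8 against 11.9 ± 2.91 CPM) and Smad1, a transducer of BMP signals (486 ± 89.5 against 216 ± 47.5 CPM), belonged to the same set, as did AA467197, Ankrd37, Tpi1, Prr5, Lxn, Cd276, Pkm, Bcl2l11, Slc2a1, Lcp2, Eif4ebp1 and Ttc9.

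Markers of other vessel segments were among the genes lowest in tip cells. Gja4, a connexin of arterial ECs, stood at 30.1 ± 25.04 against 317 ± 105 CPM, and Clu, Stmn2 and Fbln2 at 51.7 ± 27.8 against 427 ± 231 CPM, 25.4 ± 28.2 against 247 ± 162 CPM and 37.9 ± 18.0 against 333 ± 137 CPM. Ackr1, the chemokine-binding receptor of venules, stood at 14.6 ± 18.7 against 231 ± 169 CPM. The lymphatic genes Ccl21a and Lyve1 stood at 35.3 ± 55.7 against 686 ± 474 CPM and 21.0 ± 39.2 against 121 ± 109 CPM, and Slc6a6, Lbp and Lmcd1 completed the 10. By list, 8 of 8 arterial genes tested (11 listed) were lower in tip cells in each library (median log2 ratio -2.69). So were 7 of 7 genes tested (9 listed) of postcapillary venous, stalk-like ECs (median -1.49). The median over all genes was -0.01. Pan-endothelial genes moved little as a list, with 1 of 10 higher and 2 lower in each library.

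**Figure D1:**
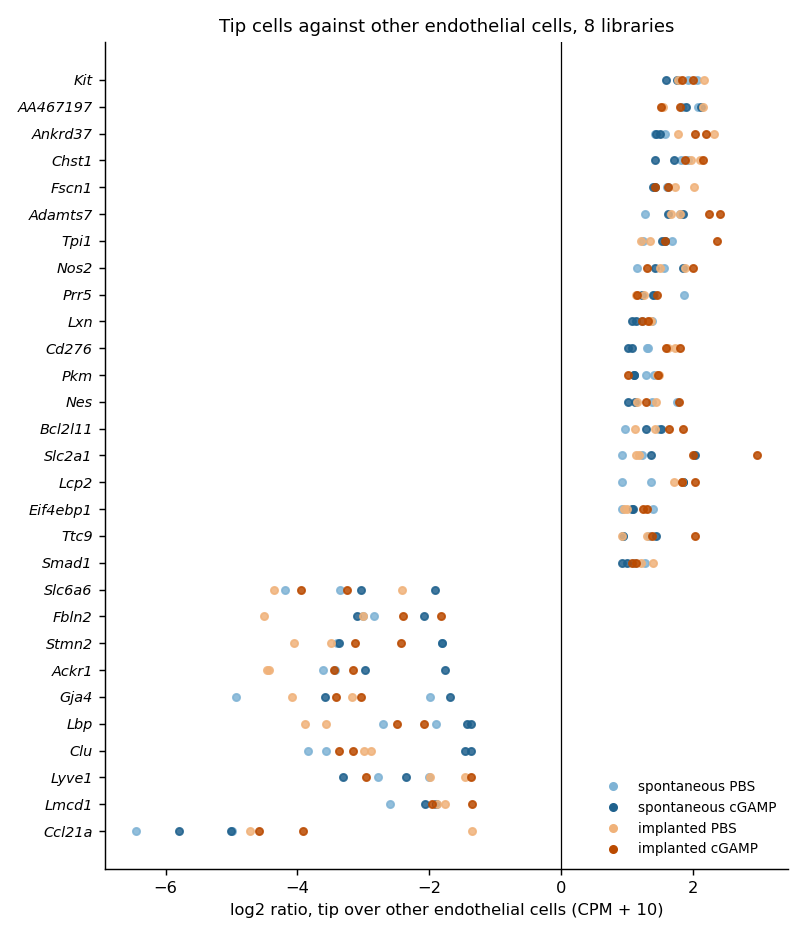
Log2 ratio of the mean CPM in tip cells to that in other ECs of the same library (x axis, pseudocount of 10 CPM), with 1 point per library, for 19 of the genes highest and the 10 genes lowest in tip cells by the naming rule (y axis). All 8 points of each gene lie on 1 side of 0. Kit lay between 1.60 and 2.18 and Ccl21a between -6.44 and -1.35.

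Glycolysis and hypoxia genes were raised in tip cells. Of 27 such genes outside the rule, 20 were higher in tip cells in 8 of 8 libraries and 2 lower, with a median log2 ratio of 0.83 beside -0.01 over all genes. The glucose carrier Slc2a1 (175 ± 113 against 43.3 ± 8.16 CPM) and the glycolytic enzymes Tpi1 (479.6 ± 133 against 152 ± 25.3 CPM) and Pkm (1412 ± 246 against 575 ± 134 CPM) were among them, as was Ankrd37, a target of hypoxia-inducible factors (133 ± 19.9 against 31.5 ± 5.66 CPM). Ldha, which makes lactate from pyruvate, lay at 413 to 687 CPM in tip cells and 318 to 443 CPM in the other ECs (median log2 ratio 0.54, 0.04 to 1.09). Epas1, a hypoxia-inducible factor abundant in ECs, was lower in tip cells in all 8 libraries (median log2 ratio -1.09, -1.52 to -0.58), and its relative Hif1a was higher in all 8 (median log2 ratio 0.30, 0.11 to 0.79).

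The sequences just before a RefSeq transcript start of 3 of these genes, each of which lies inside the gene as GENCODE draws it and so before an alternative start, are shown because they hold the core ACGTG that hypoxia-inducible factors read. They are RefSeq sequence of GRCm38.p6, 120 bases each, 5′ to 3′ on the strand of the gene, with each ACGTG on either strand in capitals. Slc16a3 is chr11:120948947-120949066 (plus strand), Ldha chr7:46845684-46845803 (plus strand) and Ankrd37 chr8:45999851-45999970 (minus strand). The first 2 hold a pair of matches or more and Ankrd37 holds 1. Of the Slc16a3 and Ankrd37 stretches, 14 and 17 bases lie in an annotated exon.
Slc16a3: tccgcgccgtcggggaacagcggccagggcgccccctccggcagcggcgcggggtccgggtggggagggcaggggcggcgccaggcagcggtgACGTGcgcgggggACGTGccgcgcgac
Ldha: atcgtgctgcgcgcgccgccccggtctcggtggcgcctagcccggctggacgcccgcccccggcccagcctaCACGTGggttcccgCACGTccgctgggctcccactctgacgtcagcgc
Ankrd37: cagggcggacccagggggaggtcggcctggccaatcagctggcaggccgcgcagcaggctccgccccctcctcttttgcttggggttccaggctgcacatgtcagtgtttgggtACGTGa

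In the 250 bases before the start, ACGTG was found on either strand in 19 of the 38 promoters of 26 glycolysis and hypoxia genes with sequence, and in 5444 of 32851 promoters (16.6%) of all genes. It was found in 1 of 7 promoters (14.3%) of the 6 marker genes, that of Slc16a3, and in 1 of 17 (5.88%) of the other tip-cell genes. The letters of a promoter say nothing of binding in these cells.

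Several other lists had more genes higher than lower in tip cells in each library: guidance and migration genes (7 of 22 higher and 2 lower, median log2 ratio 0.45), cell death genes (8 of 19 and 2, median 0.25) and basement membrane genes, beside 9.13% of all genes higher. Of 22 genes for basement membrane proteins and collagen-processing enzymes, 11 were higher in tip cells in each library and 3 lower, with a median log2 ratio of 0.52. Col4a1, the main collagen IV chain, lay at 3497 to 5932 CPM in tip cells and 1769.7 to 3606 CPM in other ECs, without overlap. The laminin chains Lama4 (median log2 ratio 1.24, 0.79 to 1.52) and Lamc1 (median log2 ratio 0.87, 0.41 to 1.21) and the collagen chaperone Serpinh1 (median log2 ratio 0.64, 0.48 to 0.93) were higher too, while the laminin chain Lamb2 was lower (median log2 ratio -1.14, -1.93 to -0.22).

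Of 6 tested genes of the apelin and adrenomedullin system outside the rule, 3 were lower in tip cells in each library (Calcrl, Ramp2 and Cxcl12) and 1 higher (Ackr3). Aplnr, the apelin receptor, was lower in 7 of 8 libraries (median log2 ratio -0.83, -1.75 to 0.23), with 30.8 to 271 CPM in tip cells and 125 to 399 CPM in other ECs. Calcrl and Ramp2, which together form an adrenomedullin receptor, gave ratios of -0.24, -0.69 to -0.11 and -0.29, -0.67 to -0.17. Ackr3, which binds Cxcl12 beside Cxcr4, was higher (median log2 ratio 0.73, 0.36 to 1.28), and Cxcl12 itself was lower (median log2 ratio -1.26, -2.24 to -0.04). Tek, the receptor of the angiopoietins, and the phosphatase Ptprb that acts on it were lower (median log2 ratio -1.06, -1.62 to -0.74 and -1.22, -1.76 to -0.20), while Angpt2, a ligand of Tek, was higher.

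Levels of several other tip-cell genes changed with the number of markers a cell carried. From cells with 2 markers (998 cells) to cells with all 6 (92 cells), the median library level went from 117 to 882 CPM for Angpt2, from 80.3 to 323 CPM for Esm1 and from 159 to 384 CPM for Nid2. It went from 266 to 31.1 CPM for Aplnr, with 274 CPM at 3 markers, and from 675 to 385 CPM for Kdr. Dll4 was at 198 CPM with 2 markers, 261 CPM with 3 and 274 to 275 CPM from 4 on, and Col4a1 (3595 to 4688 CPM) and Cd34 (758 to 957 CPM) went up and down. Cells with 3 and 4 markers, just outside and just inside the rule, had 158 and 252 CPM of Angpt2 and 99.7 and 155 CPM of Esm1. Libraries held as few as 2 cells with 6 markers.

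The design asks how ECs of the 2 models respond to cGAMP, and the share of tip cells among ECs was compared first. In the spontaneous model tip cells made up 4.37% (38 of 869 ECs, Wilson 95% interval 3.20% to 5.95%) and 4.86% (27 of 556 ECs, Wilson 95% interval 3.36% to 6.97%) after PBS, and 12.3% (79 of 644 ECs, Wilson 95% interval 9.95% to 15.03%) and 8.45% (54 of 639 ECs, Wilson 95% interval 6.53% to 10.9%) after cGAMP. In the implanted model they made up 7.81% (71 of 909 ECs, Wilson 95% interval 6.24% to 9.74%) and 4.48% (46 of 1026 ECs, Wilson 95% interval 3.38% to 5.93%) after PBS, and 10.7% (109 of 1020 ECs, Wilson 95% interval 8.94% to 12.7%) and 15.03% (84 of 559 ECs, Wilson 95% interval 12.3% to 18.2%) after cGAMP. All 4 cGAMP libraries were above all 4 PBS libraries. The mean went from 4.61% ± 0.342 to 10.4% ± 2.70 (SD, n = 2) in spontaneous tumours, a ratio of 2.24, and from 6.15% ± 2.35 to 12.9% ± 3.07 in implanted tumours, a ratio of 2.09. With 2 libraries a group the smallest two-sided exact permutation p is 0.333, which both models gave. Permuting within both models together, the difference of 6.23 percentage points had an exact permutation p of 0.0556, again the smallest possible. The intervals cover counting error only.

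The same order of the mean shares was found with a stricter rule and at equal depth. With 5 of 6 markers required, the mean share went from 1.70% to 5.14% in spontaneous and from 2.61% to 7.55% in implanted tumours. In non-cycling ECs thinned to 3000 UMIs, the share with 4 or more markers went from 1.02% to 2.87% and from 1.28% to 6.66%. As sequenced, the share among non-cycling ECs went from 4.84% to 10.5% and from 6.87% to 13.0%. Thinning left out 463 non-cycling ECs that were too shallow, 242 of them in replicate 1 of implanted cGAMP. Of these 463 cells 14 were tip cells, 11 in that replicate. The thinned share of that library is thus one of its deeper cells. Without cells that carried 5 or more markers of mural, epithelial or immune cells, the gains were 4.60 and 6.93 points. With all cells left out that carried 2 or more such markers, few tip cells remained and the order was lost in spontaneous tumours. There 2 of 178 and 5 of 142 ECs were tip cells after PBS (1.12% and 3.52%) and 3 of 34 and 1 of 67 after cGAMP (8.82% and 1.49%, exact permutation p = 0.667, and 0.111 over both models), while implanted tumours had 6.84% and 3.08% after PBS and 10.2% and 10.9% after cGAMP. Over the same libraries the share of proliferating ECs went from 4.64% to 1.09% in spontaneous and from 10.7% to 1.29% in implanted tumours, with an exact permutation p of 0.0556 over both models. A share can also change when other ECs are lost, or when the 6 markers change in level and different cells meet the rule. Loss of other ECs, gain of tip cells and changed marker levels cannot be told apart here.

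**Figure D2:**
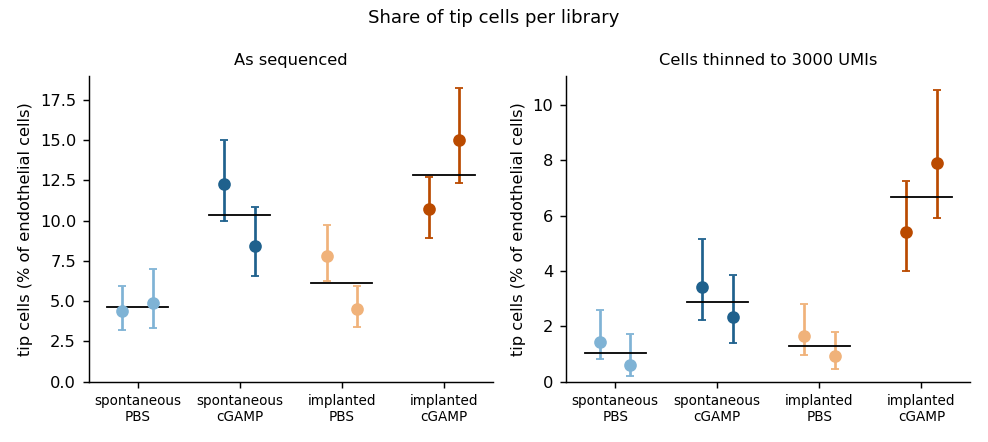
Tip cells as a percentage of ECs (y axis) in each of the 8 libraries by tumour model and injection (x axis), as sequenced (left) and in cells thinned to 3000 UMIs (right, with its own scale), with Wilson 95% intervals as bars and a line at the mean of each group. The left panel is a share of all ECs and the right one a share of non-cycling ECs deep enough to thin. As sequenced, the PBS libraries lie between 4.37% and 7.81% and the cGAMP libraries between 8.45% and 15.03%.

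Most of the 6 markers rose after cGAMP over all non-cycling ECs, tip cells included (limma on log2 of mean CPM + 10, Benjamini-Hochberg adjusted over all genes). This set was still cut by the Pecam1 and proliferation limits, but not by how many of the 6 markers a cell carried. Pgf averaged 14.2 and 12.7 CPM after PBS and 74.8 and 39.6 CPM after cGAMP in spontaneous tumours (log2 fold change 1.47 ± 0.24, adjusted p = 0.00363), and 21.3 and 11.6 CPM and 59.7 and 69.4 CPM in implanted tumours (1.52 ± 0.24, adjusted p = 0.00169). Values after ± are SEs from here on. Adm rose by 0.75 ± 0.18 (adjusted p = 0.0193) and 1.29 ± 0.18 (adjusted p = 0.000915) on the log2 scale, Slc16a3 by 0.70 ± 0.16 (adjusted p = 0.0158) and 1.36 ± 0.16 (adjusted p = 0.000342), and Trp53i11 by 0.61 ± 0.18 (adjusted p = 0.0434) and 0.89 ± 0.18 (adjusted p = 0.00626). Apln rose in implanted tumours (0.73 ± 0.19, adjusted p = 0.0188) and not detectably in spontaneous ones (-0.13 ± 0.19, adjusted p = 0.656). Tip cells are part of these means. In the other ECs alone, Apln averaged 61.2 and 44.7 CPM in implanted PBS and 44.7 and 37.4 CPM in implanted cGAMP. Pgf averaged 6.95 and 8.31 CPM and then 22.1 and 12.3 CPM in the same cells. Cxcr4 passed in neither (-0.07 ± 0.15, adjusted p = 0.76 and -0.08 ± 0.15, adjusted p = 0.725). Of all 6833 genes tested in these cells, 22.6% were called in the spontaneous (7.71% higher and 14.9% lower) and 33.9% in the implanted response (11.6% higher and 22.3% lower). None of the 6 had a called difference between the models (adjusted p = 0.178 to 0.993). A changed level in tip cells and a change in which cells met the rule therefore cannot be told apart in the responses that follow.

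In tip cells of spontaneous tumours, cGAMP changed 797 of 6902 genes (11.5%) by limma at an adjusted p of 0.05, 409 higher and 388 lower. The spread was shared over all 8 libraries, and the 6 markers were left out of the counts. With median-of-ratios scaling 61.8% of the calls were higher, against 51.3%. Leaving out a cGAMP replicate lowered the count to 449 (without replicate 1) or 434 (without replicate 2). Interferon genes rose together: 29 of 29 interferon-stimulated genes tested passed, as did 15 of 15 antigen presentation genes and 11 of 12 chemokines and cytokines, against 5.93% of all genes called higher. The median log2 fold changes were 3.36, 2.61 and 1.69, with all genes at -0.08. With genes unseen after PBS set at 3 UMIs over the tip cells of the group, the medians of the interferon and antigen presentation lists were 3.38 and 2.66.

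Ccl5, a chemokine that draws T cells, had 0 UMIs in the tip cells of both spontaneous PBS libraries and averaged 6554 and 5546 CPM after cGAMP, at least 2393-fold higher than the limit set by 3 UMIs (adjusted p = 9.96e-10). The other ECs of the cGAMP libraries had 1295 and 877 CPM. Cxcl9, a ligand of Cxcr3, a chemokine receptor of T cells, went from 29.9 and 14.8 CPM to 2778 and 3156 CPM (log2 fold change 6.56 ± 0.42, adjusted p = 1.15e-06). Cxcl10, which binds the same receptor, went from 7.97 and 0 CPM to 745 and 468 CPM (log2 fold change 5.49 ± 0.35, adjusted p = 1.15e-06). Irf7, the transcription factor that amplifies the interferon response, went from 74.96 and 14.98 CPM to 1560.2 and 1709.7 CPM (log2 fold change 5.16 ± 0.40, adjusted p = 4.06e-06). Among antiviral effectors, Rsad2 went from 44.3 and 7.14 CPM to 1215 and 825 CPM (log2 fold change 5.05 ± 0.41, adjusted p = 5.44e-06) and Ifit1 from 10.2 and 8.55 CPM to 544 and 451 CPM (log2 fold change 4.71 ± 0.19, adjusted p = 4.17e-08). For each of these genes the PBS and cGAMP libraries were apart. In the antigen presentation list, the class I heavy chain H2-K1 went from 884 and 748 CPM to 4760.2 and 5282 CPM (log2 fold change 2.61 ± 0.21, adjusted p = 5.67e-06) and the peptide transporter Tap1 from 14.7 and 7.81 CPM to 299 and 283 CPM (log2 fold change 3.84 ± 0.31, adjusted p = 5.67e-06).

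Promoters of 3 interferon genes are shown because they hold the site GAAANNGAAA that interferon-activated factors read. They are RefSeq sequence of GRCm38.p6, 120 bases before the start on the strand of the gene, with each match on either strand in capitals. Isg15 is chr4:156200819-156200938 (minus strand), Ifit1 chr19:34640769-34640888 (plus strand, 18 bases in an annotated exon) and Rsad2 chr12:26456453-26456572 (minus strand). Isg15 holds 3 overlapping matches, Ifit1 holds 2 and Rsad2 holds 1.
Isg15: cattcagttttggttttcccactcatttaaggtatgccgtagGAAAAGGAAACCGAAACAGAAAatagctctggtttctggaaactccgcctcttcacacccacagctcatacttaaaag
Ifit1: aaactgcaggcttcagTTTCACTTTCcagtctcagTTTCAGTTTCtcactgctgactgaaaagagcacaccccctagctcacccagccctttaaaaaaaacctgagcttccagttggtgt
Rsad2: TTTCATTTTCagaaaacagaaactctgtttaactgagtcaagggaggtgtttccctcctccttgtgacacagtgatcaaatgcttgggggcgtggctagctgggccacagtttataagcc

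In 250 bases, the site was found in 12 of 28 promoters (42.9%) of 23 interferon-stimulated genes with sequence, in 978 of 32851 promoters (2.98%) of all genes, and in 0 of 7 promoters of the marker genes and 0 of 17 of the other tip-cell genes.

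**Figure D3:**
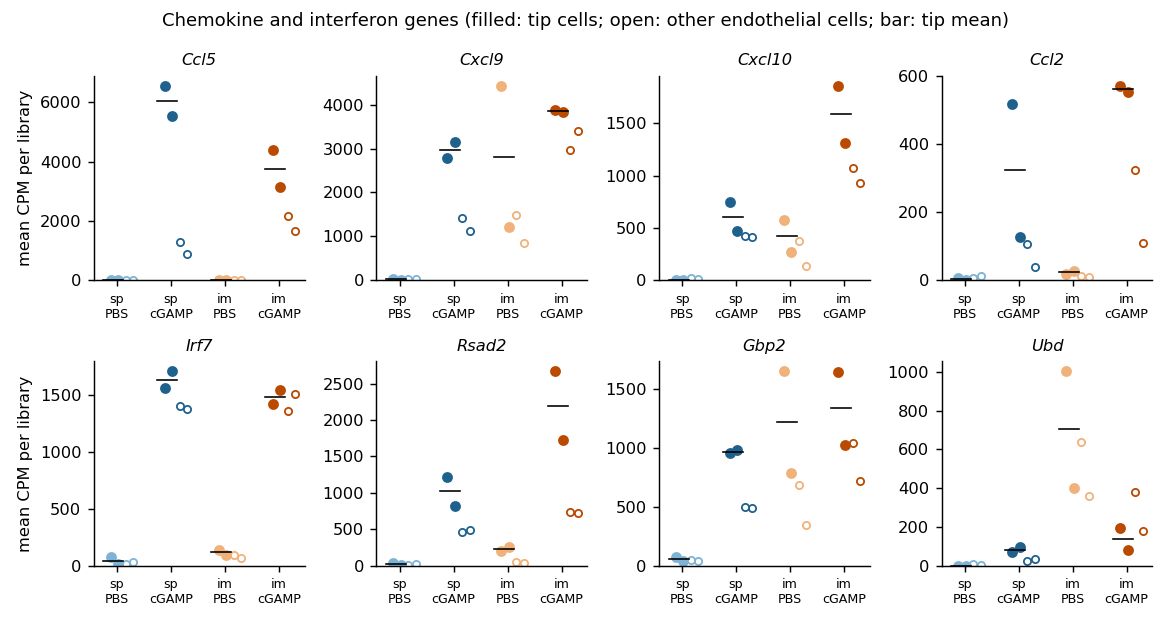
Mean CPM per library (y axis, linear, each panel with its own scale) of 8 interferon and chemokine genes in tip cells (filled points, bar at the mean of 2 libraries) and other ECs (open points), by group (x axis, sp spontaneous and im implanted). Ccl5 is at 0 in tip cells of both spontaneous PBS libraries, and Cxcl9 is above 1000 CPM in tip cells of implanted PBS but under 30 CPM in those of spontaneous PBS.

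Genes of the tip-cell list fell in the same libraries, though none of them had a response called different from that of the other ECs (test given below). The list also holds Kdr and Efnb2, which were not raised in tip cells. Of the 20 other tip-cell genes, 12 fell and none rose (median log2 fold change -0.82), against 5.62% of all genes called lower. Esm1 went from 582 and 594 CPM to 231 and 313 CPM (log2 fold change -1.10 ± 0.16, adjusted p = 0.000631). Igfbp3, a binding protein of insulin-like growth factors, went from 4183 and 5477 CPM to 2137 and 1565 CPM (log2 fold change -1.38 ± 0.15, adjusted p = 6.82e-05). Ramp3, a receptor activity-modifying protein through which adrenomedullin signals, went from 167 and 95.7 CPM to 24.5 and 17.6 CPM (log2 fold change -2.15 ± 0.36, adjusted p = 0.00159), and the guidance receptor Unc5b from 187 and 138 CPM to 78.7 and 72.7 CPM (log2 fold change -0.99 ± 0.18, adjusted p = 0.00305). The PBS and cGAMP libraries did not overlap for any of these 4. Angpt2 did not pass (log2 fold change -0.83 ± 0.29, adjusted p = 0.09), with 503 and 562 CPM after PBS and 333 and 262 CPM after cGAMP, and neither did Dll4 (log2 fold change -0.24 ± 0.16, adjusted p = 0.375).

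The VEGF receptors fell, beside 5.62% of all genes called lower. Kdr, Flt1, Nrp1 and Nrp2 are also members of the tip-cell list, so the 2 counts are not separate results. Of 7 VEGF family genes outside the rule, 5 fell and none rose: Kdr (714 and 844 CPM to 501 and 433 CPM, log2 fold change -0.72 ± 0.13, adjusted p = 0.00227), Flt1 (1014 and 1027 CPM to 651 and 469 CPM, log2 fold change -0.87 ± 0.19, adjusted p = 0.00973), Flt4 (log2 fold change -0.85 ± 0.18, adjusted p = 0.00867) and the co-receptors Nrp1 (log2 fold change -1.09 ± 0.14, adjusted p = 0.000254) and Nrp2 (log2 fold change -1.06 ± 0.15, adjusted p = 0.000582). Vegfa and Vegfc did not pass (0.56, adjusted p = 0.22 and -0.67, adjusted p = 0.129). The calls of Flt1 and Flt4 were lost without replicate 2 of spontaneous cGAMP (adjusted p = 0.144 and 0.0981), and the count fell to 3 of 7.

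Basement membrane genes fell too, 12 of 22 with none higher (median -0.59). For this list and those below, 5.93% of all genes were called higher and 5.62% lower. Col4a1 went from 5796 and 5932 CPM to 3649 and 3497 CPM (log2 fold change -0.71 ± 0.085, adjusted p = 0.000121), Sparc, a collagen-binding matrix protein, from 9134 and 10316 CPM to 5524 and 5674 CPM (log2 fold change -0.79 ± 0.11, adjusted p = 0.000405), and Hspg2, which encodes perlecan, from 767 and 738 CPM to 444 and 447 CPM (log2 fold change -0.74 ± 0.11, adjusted p = 0.000641). Nid2, which is also in the tip-cell list, fell by 1.03 on the log2 scale (SE 0.16, adjusted p = 0.000828). Of 22 guidance and migration genes, 8 fell, among them the slit receptor Robo1 (log2 fold change -2.25 ± 0.29, adjusted p = 0.000217) and the semaphorin Sema6d (log2 fold change -1.45 ± 0.20, adjusted p = 0.000384). Of 11 Notch genes, the targets Hey1 (log2 fold change -1.27 ± 0.22, adjusted p = 0.00194) and Nrarp (log2 fold change -1.36 ± 0.25, adjusted p = 0.00304) and the ligand Jag2 (log2 fold change -0.77 ± 0.19, adjusted p = 0.0177) fell. Glycolysis and hypoxia genes mostly stayed within the spread, with 1 of 27 higher (Higd1b) and 1 lower (Epas1), though 6 were higher without replicate 1 of spontaneous PBS. Of the 8 guidance calls, Plxna2, Itgb1 and Itga6 were lost without either replicate of spontaneous cGAMP (adjusted p up to 0.242). The call of Nrarp was lost without replicate 2 of spontaneous cGAMP (adjusted p = 0.0564), and that of Jag2 without that library (adjusted p = 0.176) or without replicate 1 of spontaneous PBS.

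The largest decrease by the naming rule was that of Ptn, encoding the heparin-binding growth factor pleiotrophin, from 649 and 545 CPM to 7.62 and 25.6 CPM (log2 fold change -4.59 ± 0.30, adjusted p = 1.15e-06). It was followed by Slco2a1, a prostaglandin carrier (log2 fold change -2.61 ± 0.36, adjusted p = 0.000405), Ramp3, the transmembrane collagen Col13a1 (105 and 84.1 CPM to 17.6 and 14.6 CPM, log2 fold change -2.0 ± 0.24, adjusted p = 0.000119), AU021092, Pgm2l1, Itga9, the potassium channel subunit Kcne3 (591 and 750.4 CPM to 269 and 132 CPM, log2 fold change -1.76 ± 0.24, adjusted p = 0.000428), Fam171a2, Igfbp4, Nostrin and Piezo2, a mechanically gated channel. The other genes at the top of the increase were Ifi27l2a, Ifit3b, Ccl2, Ifit3, Serping1 and Ifit2. For Nostrin the call was lost without replicate 2 of spontaneous cGAMP (adjusted p = 0.0717).

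Markers of mural and other stromal cells, which wrap and surround capillaries, moved in the same libraries. Higd1b, the gene of the hypoxia list called higher above, rose beside them, and the part of mural RNA in its rise was not tested. In tip cells they summed to 96.9 and 127 CPM in the 2 spontaneous PBS libraries and 983 and 818 CPM after cGAMP, and to 132 and 89.5 CPM and 84.4 and 302 CPM in implanted PBS and cGAMP. In the other ECs they summed to 225 and 714 CPM and 989 and 835 CPM in the spontaneous groups. Of 8 mural genes tested in tip cells, 7 rose (median 2.55, or 2.79 with genes unseen after PBS at their limit), and 4 without replicate 2 of spontaneous cGAMP. Pdgfrb, Notch3 and Cspg4 had 0 UMIs in the tip cells of both spontaneous PBS libraries. Tip cells that carried 5 or more markers of mural, epithelial or immune cells were then left out (444 of 508 left). The 2 mural genes still tested had a median log2 fold change of -0.23. Mural markers helped to choose the cells left out, so this value follows from that choice. In the same fit 12 of 20 tip-cell genes, 5 of 7 VEGF family genes, 10 of 22 basement membrane genes and 29 of 29 interferon-stimulated genes were still called in the same directions. In cells thinned to 3000 UMIs, 6 of the 20 tip-cell genes fell.

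**Figure D4:**
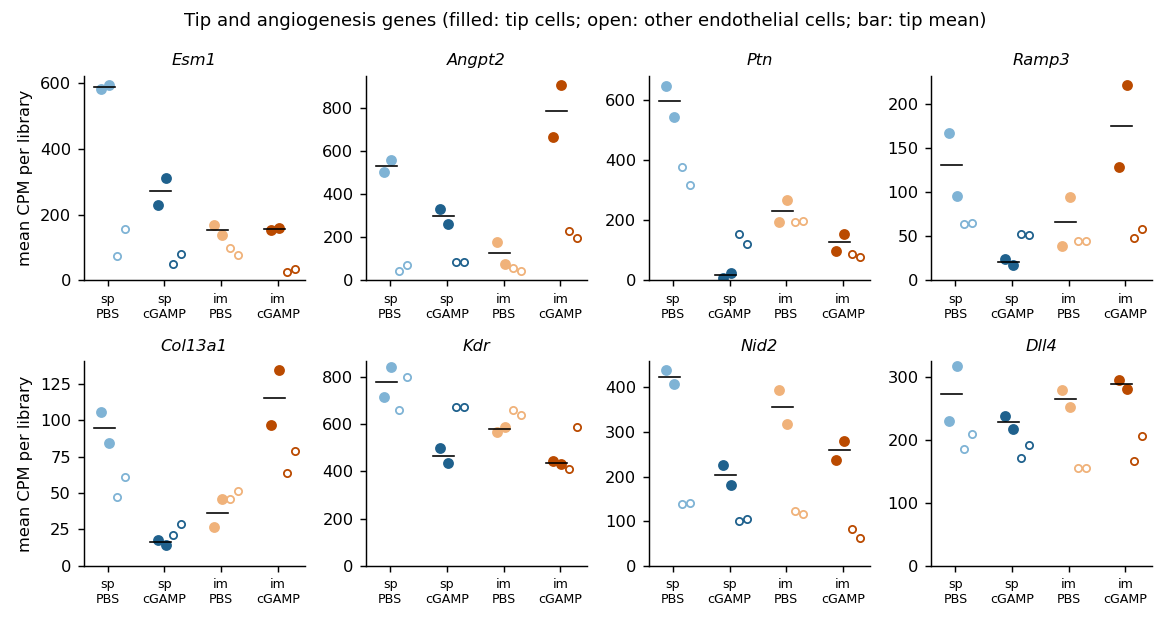
Mean CPM per library (y axis, linear, each panel with its own scale) of 8 genes in tip cells (filled points, bar at the mean of 2 libraries) and other ECs (open points), by group (x axis, sp spontaneous and im implanted). Ptn and Col13a1 are not members of the tip-cell list, and the other genes shown are. In spontaneous tumours Esm1, Ptn and Col13a1 are lower in tip cells after cGAMP, and Angpt2 is highest in the implanted cGAMP libraries, at 668 and 907 CPM.

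In tip cells of implanted tumours, cGAMP changed 1113 genes (16.1%), 497 higher and 616 lower. With median-of-ratios scaling, which moved the median of all genes from -0.10 to 0.02, 64.0% of the calls were higher, against 44.7%. The count was 467 without replicate 2 of implanted PBS, and 651 and 466 without replicates 1 and 2 of implanted cGAMP. Interferon-stimulated genes rose in 25 of 29 cases (median log2 fold change 1.95, all genes -0.10), antigen presentation genes in 12 of 15 and chemokines and cytokines in 8 of 12, against 7.2% of all genes called higher. The antigen presentation count was 6 without replicate 2 of implanted PBS or replicate 1 of implanted cGAMP, and the chemokine count was 5 without replicate 2 of implanted PBS and 4 without replicate 2 of implanted cGAMP. Ccl5 went from 9.24 and 0 CPM to 4385 and 3134 CPM (log2 fold change 8.07 ± 0.26, adjusted p = 4.96e-09), Ccl2, which draws monocytes, from 18.1 and 28.5 CPM to 572 and 554 CPM (log2 fold change 4.12 ± 0.46, adjusted p = 0.000143) and Irf7 from 141 and 95.5 CPM to 1421 and 1540.4 CPM (log2 fold change 3.56 ± 0.40, adjusted p = 0.000137). Ifi27l2a, Slfn4, Phf11b, Slfn2, Ifit1, Isg20, Mx1, Plac8 and Ifi209 made up the rest of the 12 genes with the largest increase. Tip cells with 2 or more immune markers made up 4.23% and 4.35% in implanted PBS and 21.1% and 19.0% in implanted cGAMP. The part of such cells in these increases was not tested. Irf1, Irf9, Gbp2 and Iigp1 were the 4 interferon genes that did not pass. Gbp2, an interferon-gamma-induced GTPase, stood at 1656 and 785 CPM after PBS and 1648 and 1030.3 CPM after cGAMP, and Cxcl9 at 4431 and 1204 CPM and 3867 and 3842 CPM (log2 fold change 0.73 ± 0.42, adjusted p = 0.277).

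In implanted tip cells, genes of the tip-cell list moved in both directions. Of the 20 other tip-cell genes 4 rose (Angpt2, Flt1, Ramp3 and Robo4) and 5 fell (Nrp1, Cd34, Lxn, Efnb2 and Plxnd1, against 8.92% of all genes called lower), with a median of -0.01. With median-of-ratios scaling 6 rose and 4 fell, without either replicate of implanted PBS 2 rose and 4 fell, and without replicate 2 of implanted cGAMP 1 rose and 3 fell. Angpt2 went from 180.5 and 75.4 CPM to 668 and 907 CPM (log2 fold change 2.63 ± 0.29, adjusted p = 0.000123), and in the other ECs it stood at 57.9 and 43.0 CPM and 228 and 196 CPM. Vegfa rose from 10.1 and 5.55 CPM to 63.6 and 86.6 CPM (log2 fold change 2.25 ± 0.27, adjusted p = 0.000208). Flt1 went from 814 and 654 CPM to 1111 and 1645 CPM (log2 fold change 0.88 ± 0.19, adjusted p = 0.00825), a call lost without replicate 2 of implanted PBS or of implanted cGAMP (adjusted p up to 0.108). Nrp1 fell from 352 and 401 CPM to 205 and 182 CPM (log2 fold change -0.92 ± 0.14, adjusted p = 0.00104), Efnb2, a ligand of arterial and tip ECs, from 123 and 129 CPM to 42.9 and 48.5 CPM (log2 fold change -1.29 ± 0.15, adjusted p = 0.000188), and Aplnr from 156 and 229 CPM to 59.9 and 30.8 CPM (log2 fold change -1.90 ± 0.26, adjusted p = 0.000522). Esm1 stood at 168 and 139 CPM and 153 and 159.9 CPM (log2 fold change 0.03 ± 0.16, adjusted p = 0.923).

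Glycolysis and hypoxia genes rose in 7 of 27 cases and fell in none, beside 7.2% and 8.92% of all genes. Slc2a1 went from 111 and 93.8 CPM to 280.2 and 402 CPM (log2 fold change 1.63 ± 0.26, adjusted p = 0.00142) and Gapdh from 1402 and 1347 CPM to 1991 and 2139 CPM (log2 fold change 0.58 ± 0.11, adjusted p = 0.00473), and Aldoa, Tpi1, Pgk1, Bnip3 and Vegfa were the others. Leaving out replicate 2 of implanted cGAMP left 2 of the 7 and ended the call of Gapdh (adjusted p = 0.0532), leaving out replicate 2 of implanted PBS left 4 with 1 lower, and 1 passed in cells thinned to 3000 UMIs. Among basement membrane genes 4 rose and 7 fell. The rise was in the collagen-modifying enzymes P4hb (log2 fold change 0.76 ± 0.13, adjusted p = 0.0018), P4ha1 and P4ha2 and in Nid1, and the fall included Col15a1 (564 and 522 CPM to 172 and 136 CPM, log2 fold change -1.76 ± 0.16, adjusted p = 2.88e-05), Sparc (log2 fold change -0.60 ± 0.11, adjusted p = 0.00293) and Hspg2 (log2 fold change -0.64 ± 0.11, adjusted p = 0.00202). With median-of-ratios scaling 4 rose and 4 fell, without replicate 2 of implanted PBS or of implanted cGAMP 1 rose and 4 fell, and in thinned cells 3 fell. For the glycolysis list the lowest adjusted p of a difference between the models was 0.0553 (Vegfa). The calls of P4ha1 and Nid1 held in 4 and 3 of the 8 fits that each left out 1 library.

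Capillary genes of fatty acid handling fell in implanted tip cells, in which 8.92% of all genes were called lower. Of 6 genes of AQP7+ capillary ECs tested, 4 fell: Fabp4, a fatty acid-binding protein, from 2679 and 3455 CPM to 1431 and 959 CPM (log2 fold change -1.37 ± 0.18, adjusted p = 0.000416), Fabp5 from 572 and 326 CPM to 108 and 128 CPM (log2 fold change -1.79 ± 0.23, adjusted p = 0.00033), the fatty acid carrier Cd36 (log2 fold change -0.99 ± 0.21, adjusted p = 0.00692) and Car4 (log2 fold change -1.74 ± 0.49, adjusted p = 0.0322). Rbp7, a retinol-binding protein, had the largest decrease by the naming rule, from 152 and 335 CPM to 26.4 and 18.9 CPM (log2 fold change -2.86 ± 0.47, adjusted p = 0.00159). The heat shock gene Hspa1a (251 and 356 CPM to 59.4 and 56.6 CPM, log2 fold change -2.18 ± 0.25, adjusted p = 0.000177), Piezo2 and Ifi27 also fell, as did Ubd, Serpina3g, Slc29a1 and Tmem255a. The calls of Cd36 and Car4 held in 6 and 4 of the 8 fits that each left out 1 library, with adjusted p up to 0.0834 and 0.262, and that of Serpina3g was lost without replicate 1 of implanted PBS or replicate 2 of implanted cGAMP (adjusted p up to 0.0737).

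Cell death genes were listed because the study asked whether cGAMP kills tumour ECs. In implanted tip cells 9 of 19 rose and 1 (Bax) fell, beside 7.2% and 8.92% of all genes, and in spontaneous ones 4 rose and none fell, beside 5.93% and 5.62%. Tnfsf10, the death ligand TRAIL, went from 30.9 and 43.0 CPM to 126 and 129.8 CPM in spontaneous (log2 fold change 1.57 ± 0.22, adjusted p = 0.000398) and from 110.0 and 73.2 CPM to 258 and 192 CPM in implanted tumours (log2 fold change 1.22 ± 0.22, adjusted p = 0.00237). Mlkl, the executor of necroptosis, went from 18.3 and 20.4 CPM to 59.95 and 73.0 CPM (log2 fold change 1.38 ± 0.19, adjusted p = 0.000401) and from 34.3 and 42.4 CPM to 95.5 and 110.5 CPM (log2 fold change 1.23 ± 0.19, adjusted p = 0.00115). Casp4, the caspase of the non-canonical inflammasome, rose by 2.21 ± 0.21 (adjusted p = 1.94e-05) and by 1.002 ± 0.21 (adjusted p = 0.00666) on the log2 scale. The cell cycle inhibitor Cdkn1a (log2 fold change 1.02 ± 0.15, adjusted p = 0.00104), the pore-forming Gsdmd, Cflar, Pmaip1, Bcl2l11 and Ripk3 were called in implanted tip cells, and of these Ripk3 in spontaneous ones too. The lowest adjusted p of a difference between the models among the 19 genes was 0.0706 (Casp4). Without replicate 2 of implanted PBS the implanted count was 3, without replicates 1 and 2 of implanted cGAMP 4 and 5, and it was 1 in thinned cells. Without replicate 1 of spontaneous PBS the spontaneous count was 7. The call of Casp4 in implanted tip cells was lost without replicate 2 of implanted PBS or either replicate of implanted cGAMP (adjusted p up to 0.0838), and that of Ripk3 held in 3 of the 8 fits in each model.

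The responses of the models differed for 90 genes (1.3% of 6902), 41 with a higher and 49 with a lower response in implanted tip cells. The count ranged from 20 to 182 when 1 library was left out: 155 and 182 without spontaneous PBS replicates 1 and 2, 24 and 20 without spontaneous cGAMP replicates 1 and 2, and 45 and 26 without implanted cGAMP replicates 1 and 2. Of the 20 other tip-cell genes 5 had the higher response in implanted tumours (Esm1, Angpt2, Flt1, Ramp3 and Igfbp3) and none the lower, against 0.594% of all genes, with a median difference of 0.57 beside -0.03 over all genes. Without replicate 2 of spontaneous cGAMP, 2 of the 5 passed. Angpt2 differed by 3.45 ± 0.41 (adjusted p = 0.00205), Ptn by 3.76 ± 0.42 (adjusted p = 0.00165), Col13a1 by 3.46 ± 0.34 (adjusted p = 0.00118) and Igfbp3 by 1.84 ± 0.22 (adjusted p = 0.00205) on the log2 scale, and these 4 stayed called whichever library was left out. Ramp3 differed by 3.48 ± 0.50 (adjusted p = 0.00718), a call lost without replicate 2 of spontaneous cGAMP (adjusted p = 0.0629) or with voom on summed UMIs (adjusted p = 0.116). Gm26917 also had 1 of the 5 largest positive differences, and its call was lost with voom (adjusted p = 0.268).

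The 5 largest negative differences by the naming rule were in chemokine and other immune-response genes. Cxcl9 differed by -5.83 ± 0.60 (adjusted p = 0.00118), Ubd, a ubiquitin-like protein, by -5.42 ± 0.56 (adjusted p = 0.00118), the serpin Serpina3g by -4.08 ± 0.49 (adjusted p = 0.00205), Gbp2 by -3.74 ± 0.46 (adjusted p = 0.00248) and Cxcl10 by -3.52 ± 0.49 (adjusted p = 0.00646). Ubd and Serpina3g had 0 UMIs in spontaneous PBS, so the size of their differences depends on the pseudocount. The call of Cxcl10 was lost without replicate 1 of spontaneous cGAMP (adjusted p = 0.0502), and with voom on summed UMIs all 5 kept their direction but not their call (adjusted p up to 0.507). By list, 6 of 29 interferon-stimulated genes (Ifit1, Gbp2, Gbp3, Igtp, Iigp1 and Trim30a) and 4 of 15 antigen presentation genes (Tap1 and the immunoproteasome subunits Psmb8, Psmb9 and Psmb10) had the lower response in implanted tip cells and none the higher, against 0.71% of all genes. The first count ranged from 2 to 13 over fits that left out 1 library: 2 without either spontaneous cGAMP replicate or without replicate 2 of implanted cGAMP, 4 without replicate 1 of implanted PBS or of implanted cGAMP, 12 without replicate 2 of implanted PBS and 13 without replicate 1 of spontaneous PBS. The second was 1 without either spontaneous cGAMP replicate or replicate 2 of implanted cGAMP, and 14 without replicate 2 of implanted PBS.

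**Figure D5:**
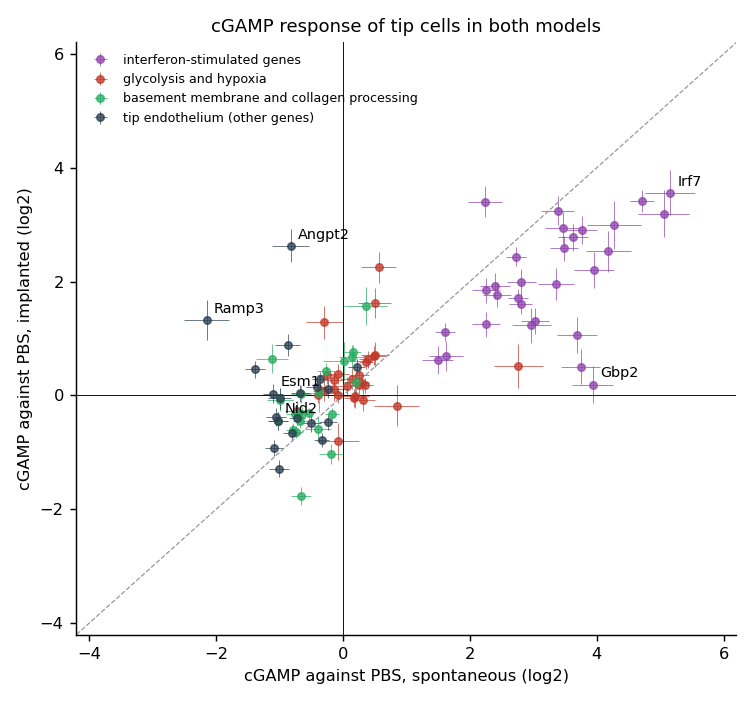
Log2 fold change of cGAMP against PBS in tip cells of spontaneous (x axis) and implanted tumours (y axis), with 1 point per tested gene of the interferon (29), glycolysis and hypoxia (27), basement membrane (22) and other tip-cell (20) lists, SEs as bars and a dashed line of equal response. Angpt2 and Ramp3 lie above the line, at -0.83 and -2.15 in spontaneous but 2.63 and 1.33 in implanted tumours, and Gbp2 lies far below it, at 3.93 and 0.19.

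The 2 models already differed after PBS, the level from which each response was measured. In implanted PBS tip cells 154 genes were higher and 75 lower than in spontaneous PBS, together 3.32% of 6902 (2.23% and 1.09%). With median-of-ratios scaling 78.5% of the calls were higher, against 67.2%. The total was 409 without replicate 1 of spontaneous PBS and 100 without replicate 1 of implanted PBS. Of 29 interferon-stimulated genes, 24 were higher (median 1.54), as were 14 of 15 antigen presentation genes (median 1.55) and 4 of 12 chemokines and cytokines. Cxcl9 stood at 4431 and 1204 CPM against 29.9 and 14.8 CPM (log2 fold change 6.21 ± 0.42, adjusted p = 1.74e-05), Gbp2 at 1656 and 785 CPM against 75.8 and 38.0 CPM (log2 fold change 4.17 ± 0.33, adjusted p = 3.78e-05) and Cxcl10 at 573 and 267 CPM against 7.97 and 0 CPM (log2 fold change 4.91 ± 0.35, adjusted p = 2.01e-05). Ubd stood at 1004 and 403 CPM against 0 UMIs in both spontaneous PBS libraries, at least 278-fold higher, and Serpina3g at 257 and 122 CPM, at least 75.04-fold higher. After cGAMP Ubd stood at 68.7 and 95.6 CPM in spontaneous and 196 and 83.1 CPM in implanted tumours, so it went up in 1 model and down in the other. Cd74, the chaperone of MHC class II (979.9 and 241 against 10.7 and 20.4 CPM), Car4, Serpina3f, Iigp1, H2-Ab1, Gbp5 and Tap1 completed the 12 highest. With voom on summed UMIs all 12 kept their direction, but Gbp2 and Iigp1 alone kept their call, and the adjusted p was 0.158 for Cxcl9, 0.38 for Cxcl10, 0.346 for Ubd, 0.254 for Serpina3g and 0.374 for Cd74. Replicate 1 of implanted PBS was above replicate 2 for each of the 6 genes given with values, and 16 of the 24 interferon calls held without it.

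Genes of the tip-cell list lay the other way after PBS. Esm1 was lower in implanted tip cells (168 and 139 CPM against 582 and 594 CPM, log2 fold change -1.88 ± 0.16, adjusted p = 5.36e-05), as was Angpt2 (180.5 and 75.4 CPM against 503 and 562 CPM, log2 fold change -2.09 ± 0.29, adjusted p = 0.00168). Of the 20 other tip-cell genes 4 were lower (also Nrp1 and Nrp2) and none higher, with a median of -0.45, and Nrp1 and Nrp2 were lost without replicate 1 of implanted PBS. Uchl1, Gpx3, Ptn, Mcf2l, Csn3, Nostrin, Ivns1abp, Nr4a1, Col13a1 and Abcb1a were the other named genes that were lower. Csn3 is an epithelial marker. Epithelial markers summed to 180 and 201 CPM in implanted PBS tip cells and 520 and 362 CPM in spontaneous PBS ones. Calls of Gpx3, Ptn, Csn3, Nostrin, Ivns1abp, Nr4a1, Col13a1 and Abcb1a were each lost without a replicate of implanted PBS (adjusted p up to 0.254), and several also without a spontaneous library. Esm1 and Angpt2 stayed called whichever library was left out and with voom, which ended the calls of the other 10 named genes.

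After cGAMP the models differed for 325 genes (4.71%), 144 higher (2.09%) and 181 lower (2.62%) in implanted tip cells. With median-of-ratios scaling 71.4% of the calls were higher, against 44.3%. The count fell to 75 and 24 without spontaneous cGAMP replicates 1 and 2 and to 82 and 42 without implanted cGAMP replicates 1 and 2, and reached 613 and 608 without spontaneous PBS replicates 1 and 2. Of the interferon list 4 of 29 were higher and none lower, all 4 lost without replicate 2 of either cGAMP group. Of the 20 other tip-cell genes 5 were higher (among them Igfbp3, 4727 and 4452 against 2137 and 1565 CPM, log2 fold change 1.32 ± 0.15, adjusted p = 0.00153) and 3 lower (among them Esm1), of which Igfbp3 alone held without replicate 2 of either cGAMP group. Fn1, encoding the matrix protein fibronectin, had the largest difference among genes higher in implanted tip cells, at 229 and 211 CPM against 18.3 and 10.6 CPM (log2 fold change 3.25 ± 0.26, adjusted p = 0.000265). Ms4a6d, Ramp3, Gm26917, Ptn, Col13a1, Ifi209, Ifi208, Mx1, Fam46a, Maged1 and Ero1l followed. Immune markers were also higher in implanted tip cells, at 232 and 79.0 CPM against 49.6 and 38.6 CPM, and their part in these differences was not tested. Named genes lower in implanted tip cells were Rgs5, a mural marker, Rbp7, Gm13889, Csn3, an epithelial marker, the small heat shock gene Hspb1, Hspa1a, Fabp5, Aplnr, Serpine2, Cd36, Klf9 and Itga1. Epithelial markers summed to 429 and 146 CPM in implanted cGAMP and 495 and 676 CPM in spontaneous cGAMP tip cells. Of these 24 named genes, Fn1, Ms4a6d, Ptn, Col13a1, Ifi209, Maged1, Hspb1, Hspa1a, Fabp5, Cd36 and Itga1 stayed called whichever library was left out, and the other 13 were each lost without replicate 2 of spontaneous cGAMP (adjusted p up to 0.253). Of 8 mural genes tested 5 were lower in implanted tip cells, and all 5 calls were lost without replicate 1 of either cGAMP group.

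Single cells of implanted PBS tumours, tip cells and other ECs alike in their libraries, covered a wide range of interferon levels. The summed level of the interferon list had a 10th percentile, median and 90th percentile over tip cells of 472, 5054 and 16561 CPM in replicate 1 and 367, 1035 and 12104 CPM in replicate 2. In the other ECs of these libraries they were 678, 2915 and 11192 CPM and 484, 1604 and 7661 CPM. In spontaneous PBS they were 241, 647 and 2694 CPM and 331, 641 and 1784 CPM. After cGAMP they were 5801, 13774 and 24504 CPM and 7053, 13587 and 21509 CPM in spontaneous and 7811, 20369.5 and 37761 CPM and 9637, 21253 and 29578 CPM in implanted tumours. The 10th percentile in each of the 4 cGAMP libraries was above the median in both implanted PBS libraries. These are levels within libraries and carry no test.

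The same genes can be compared across the 2 responses, each with its own PBS libraries. Of the genes called, 408 were called in both, which is 51.2% of the spontaneous and 36.7% of the implanted calls, and 397 of these had the same direction (255 higher and 142 lower). Among genes of the tip-cell list, Nrp1, Efnb2 and Plxnd1 fell in both, while Flt1 and Ramp3 fell in spontaneous and rose in implanted tip cells. Kit, Ankrd37 and Nid2 stood above the other ECs in all 8 libraries, and Kit and Ankrd37 were called in neither response.

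Whether tip cells responded otherwise than the other ECs of their libraries was tested as a difference of responses. In spontaneous tumours 15 genes (0.217%) passed, 11 higher (0.159%) and 4 lower (0.058%) in tip cells. Ccl5 had the larger response in tip cells by 2.60 ± 0.22 (adjusted p = 0.00467) on the log2 scale, and Vcam1, an adhesion molecule, by 2.40 ± 0.30 (adjusted p = 0.0235). Ptn fell further in tip cells (-3.31 ± 0.40, adjusted p = 0.0235), from 649 and 545 CPM to 7.62 and 25.6 CPM, against 379 and 319 CPM to 153 and 123 CPM in the other ECs. In implanted tumours 33 genes (0.478%) passed, 21 higher (0.304%) and 12 lower (0.174%), among them Ctgf, a matrix-associated growth factor, and Edn1, the vasoconstrictor endothelin. Both were higher in tip cells and held in 3 of the 8 fits that each left out 1 library. With voom on summed UMIs the calls of Ccl5, Vcam1 and Ptn were lost (adjusted p = 0.739, 0.0696 and 0.065), and in cells thinned to 3000 UMIs so was that of Ccl5 (adjusted p = 0.126). Of the listed genes, Ccl5, Vcam1 and Ptn passed in spontaneous tumours and the phosphatase Ptprb in implanted tumours. The spontaneous count was 98 without replicate 1 of spontaneous PBS, 1 and 2 without replicates 1 and 2 of spontaneous cGAMP, and 8 without either replicate of implanted cGAMP. The implanted count was 117 and 118 without replicates 1 and 2 of spontaneous PBS, 1 without either replicate of spontaneous cGAMP, 6 without replicate 1 of implanted cGAMP, and 0 by limma without either replicate of implanted PBS or replicate 2 of implanted cGAMP (673 to 863 genes at an unadjusted p of 0.05, and 309 called by voom on all libraries). The call of Ptn was lost without replicate 1 of spontaneous cGAMP (adjusted p = 0.142), and that of Vcam1 without either replicate of either cGAMP group (adjusted p up to 0.26).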

How the data were processed

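Single-cell RNA sequencing was done on live CD45-/CD31+ cells from spontaneous and implanted breast tumours injected with PBS or cGAMP, 2 libraries per group. The deposited tables hold genes by cells as natural log values, which the authors made with Cell Ranger 3.0.0 on mm10 and Seurat 3.1.1 as ln of 1 plus UMIs per 10000, after leaving out cells with few genes or much mitochondrial RNA. No column was left unmapped. The values gave back whole UMIs for 100% of entries (tolerance 0.01), so depth is known and counting intervals are Wilson 95% intervals that cover counting error only.

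Members and gene lists were chosen with earlier results of these data known, so list counts are descriptions beside the share of all genes called. Some genes belong to several lists, so counts of different lists are not independent. For each library and cell class the linear CPM was averaged over cells, with each cell scaled to its own total. Genes with at least 20 CPM in the tip cells of 2 or more libraries were tested (6902 without the rule genes). Genes low in tip cells were thus left out, also where tip cells were set against other ECs. In the test over all non-cycling ECs the same limit was applied to those cells. The fits used limma 3.58.1 in R 4.3.3 (lmFit, eBayes with trend) on log2(CPM + 10), 8 libraries in 1 fit, Benjamini-Hochberg adjusted. Fold changes are on that scale and understate low genes. The response of tip cells against other ECs was the same test on their log2 difference per library. Shares were compared by two-sided exact permutation. Named genes were, for each comparison, the 12 called genes with the largest change in each direction (5 for differences of responses) among genes averaging 50 CPM or more whose groups did not overlap, the 20 genes highest and 10 lowest in tip cells, and members of the lists. Some genes that met these rules are not reported here. No doublet caller was run. A cell with markers of 2 classes may be a doublet. Labels do not say whether replicates were processed apart, so p-values measure the spread between these libraries.

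Same-numbered replicates did not deviate together (correlations -0.0869 to 0.0408), so numbers were not treated as pairs. Promoters and positions came from RefSeq (GRCm38.p6) and GENCODE vM21. The motif search, the test over all non-cycling ECs, and the setting that drops cells with 5 or more markers of another class were added after seeing the data. The limma script was tested on simulated data. Other steps used Python 3.11.15, numpy 2.4.6, pandas 2.3.3 and scipy 1.17.1.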

Additional observations from a re-analysis of the deposited data

Results flagged for a closer look

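The response to cGAMP in tip cells differed between implanted and spontaneous tumours for 90 genes by limma. The largest positive differences (implanted minus spontaneous, log2) were 3.76 for Ptn, 3.48 for Ramp3, 3.46 for Col13a1, 3.45 for Angpt2 and 2.67 for Gm26917. The largest negative ones were -5.83 for Cxcl9, -5.42 for Ubd, -4.08 for Serpina3g, -3.74 for Gbp2 and -3.52 for Cxcl10.

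The response of tip cells differed from that of the other ECs for 15 genes in spontaneous tumours and 33 in implanted tumours. In spontaneous tumours the differences (tip minus other ECs, log2) were 2.60 for Ccl5, 2.40 for Vcam1, 1.20 for Tnfrsf12a, -3.31 for Ptn and -1.09 for C1qtnf6, and Ccl5 alone of these stayed called whichever library was left out. The call of Ccl5 was lost in 5 other settings, with adjusted p up to 0.739 (voom on summed UMIs). In implanted tumours they were 2.86 for Ctgf, 2.72 for Edn1, 1.68 for Tnfrsf23, 1.52 for Slfn2, 1.46 for Lrrc32, -1.62 for Nme1, -1.37 for Ubd, -1.29 for Lsm4, -1.25 for Ccnd1 and -1.21 for Laptm4b, and each of these calls was lost when 1 of several libraries was left out. Groups of 2 libraries are too small for a test of single outlying samples.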

How the results depend on the processing

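In all, 121 results for single named genes were recomputed, and 12 kept their direction and their call in every setting. No direction turned in any setting but 1. Without tip cells that carried 2 or more markers of mural, epithelial or immune cells, which left 1 to 24 tip cells per library, 12 of 118 reversed on the log2 scale. These were Ramp3 (0.57), Pgm2l1 (0.36) and Kcne3 (0.40) in the spontaneous response, Ccl2 in the implanted response (-0.65), Ptn (1.497) and Nr4a1 (0.43) between models after PBS, Rbp7 (0.40), Hspa1a (1.31), Fabp5 (0.85), Cd36 (2.62) and Itga1 (1.08) between models after cGAMP, and C1qtnf6 (0.074) in tip cells against other ECs in spontaneous tumours. Fewer cells remained, and no other cause was tested. Without only those with 5 or more such markers, 104 of 119 were still called.

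For the spontaneous response (797) the count was 493 with voom on summed UMIs, 502 with 5 of 6 markers required, 337 in cells thinned to 3000 UMIs and 87 without cells with markers of another class. For the implanted response (1113) it was 595 with no filter on low values, 549 with 5 markers, 281 thinned and 2 without those cells. For the difference between models (90) it was 0 with no filter, 12 with voom, 13 with 5 markers, 40 thinned and 1 without those cells. Between models after PBS (229) it was 38 with no filter, 32 with voom, 90 with 5 markers, 113 thinned and 29 without those cells. After cGAMP (325) it was 47 with no filter, 836 with voom, 10 with 5 markers, 23 thinned, 0 without those cells and 180 without cells with 5 or more markers of another class. For tip cells against other ECs in spontaneous tumours (15) it was 6 and 76 with pseudocounts of 1 and 50 CPM, 0 with no filter, 33 with a filter of 50 CPM in 4 libraries, 5 with 5 markers, and 0 thinned or without cells of another class. In implanted tumours (33) it was 0 and 286 with pseudocounts of 1 and 50 CPM, 0 with no filter, 179 with the 50 CPM filter, 309 with voom, and 0 with 5 markers, thinned, without cells with markers of another class, or without cells with 5 or more of them. Where limma gave 0, unadjusted p was under 0.05 for 57 to 1944 genes, and with voom 1 or more genes were called in each of these comparisons.

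Leaving out 1 library moved the counts over 434 to 984, 466 to 1491, 20 to 182, 100 to 409, 24 to 613, 1 to 98 and 0 to 118 in the same order. The gain in tip-cell share ranged from 3.84 to 7.65 points in spontaneous and 4.54 to 8.88 points in implanted tumours, and the spontaneous gain was 1.85 points in thinned cells and 2.84 without cells of another class. Same-numbered libraries share only a number. With the replicate block the counts were 818, 1118, 112, 248, 369, 13 and 0 (1115 at an unadjusted p of 0.05), and 12 of the 121 single-gene calls were lost. With 2 libraries a group, 27 tip cells in the smallest library and lower depth in replicate 1 of implanted cGAMP, small differences were not detectable.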

Other observations

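Mitochondrially encoded genes were lower after cGAMP in the tip cells of both models. Of all genes, 5.62% were called lower in spontaneous and 8.92% in implanted tip cells. Of 10 tested by limma, 8 fell in spontaneous tip cells (median log2 fold change -0.79) and 8 in implanted ones (median -0.97), and the spontaneous count was 5 without replicate 1 of spontaneous cGAMP. mt-Cytb, which encodes cytochrome b, went from 4289 and 4540.5 CPM to 1635 and 1873 CPM in spontaneous tumours (log2 fold change -1.33 ± 0.12, adjusted p = 1.71e-05) and from 3969 and 4555 CPM to 1885 and 1497 CPM in implanted ones (log2 fold change -1.33 ± 0.12, adjusted p = 3.47e-05). mt-Co1, a cytochrome oxidase subunit, was at 7338 and 6169 CPM and then 5862 and 6403 CPM in spontaneous tumours (adjusted p = 0.421). In cells thinned to 3000 UMIs 7 and 8 genes fell. Cells with much mitochondrial RNA were left out by the authors, and the part of that filter in these levels was not tested.

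Immediate early genes respond quickly to stimuli and also to tissue dissociation, and heat shock genes to protein stress. In spontaneous tip cells 8 of 19 genes of both kinds rose and none fell, beside 5.93% and 5.62% of all genes. Klf2, a flow-responsive factor that holds ECs quiescent, went from 317 and 319 CPM to 696 and 766 CPM (log2 fold change 1.17 ± 0.12, adjusted p = 2.73e-05), and Atf3, a stress-induced factor, from 47.5 and 74.1 CPM to 205 and 234 CPM (log2 fold change 1.72 ± 0.21, adjusted p = 0.000145). In implanted tip cells 7 rose and 2, Hspa1a and Hspa1b, fell, beside 7.2% and 8.92% of all genes. Klf2 went there from 355 and 361 CPM to 684 and 746 CPM (log2 fold change 0.98 ± 0.12, adjusted p = 0.000197) and Atf3 from 106 and 96.8 CPM to 203 and 288 CPM (log2 fold change 1.18 ± 0.21, adjusted p = 0.00241). Klf2 and Atf3 stayed called in both models whichever library was left out. Against the other ECs, 10 of the 19 genes were lower in tip cells in 8 of 8 libraries and 1 higher.

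Targets of TNF and NF-kB rose in 7 of 18 cases in spontaneous and 8 of 18 in implanted tip cells, beside 5.93% and 7.2% of all genes, and none fell. In the first model the count rose to 10 when replicate 1 of spontaneous PBS was left out and fell to 4 when replicate 2 of it or replicate 1 of spontaneous cGAMP was. The second count was 3 and 4 without replicates 1 and 2 of implanted PBS, and 3 and 1 without replicates 1 and 2 of implanted cGAMP. Vcam1, through which leukocytes adhere, went from 2.63 and 0 CPM to 108 and 94.6 CPM in spontaneous tip cells (log2 fold change 3.30 ± 0.34, adjusted p = 4.07e-05).

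Arterial genes split in spontaneous tip cells, with 2 of 8 higher and 2 lower, beside 5.93% and 5.62% of all genes. Clu, a secreted chaperone, went from 22.6 and 13.2 CPM to 90.3 and 70.8 CPM (log2 fold change 1.71 ± 0.24, adjusted p = 0.000489), and Mgp, an inhibitor of BMP signals, from 4.24 and 4.09 CPM to 157 and 68.2 CPM (log2 fold change 3.01 ± 0.56, adjusted p = 0.00352), a call lost without replicate 1 of spontaneous cGAMP (adjusted p = 0.0677). Efnb2 and Hey1 fell. Mural markers in the same tip cells went from 96.9 and 127 CPM to 983 and 818 CPM, and their part in the rise of Mgp was not tested. Bmp2, a BMP ligand of the tumour capillary list, went from 44.2 and 21.1 CPM to 129 and 159 CPM in spontaneous tip cells (log2 fold change 1.90 ± 0.43, adjusted p = 0.0113), lost without replicate 2 of spontaneous PBS or either replicate of spontaneous cGAMP. The Notch ligand Dll1 went from 17.0 and 12.8 CPM to 51.9 and 63.9 CPM in implanted tip cells (log2 fold change 1.45 ± 0.32, adjusted p = 0.00914), lost without replicate 2 of implanted PBS or of implanted cGAMP. Of 14 survival and PI3K-AKT genes, 1 rose (Birc2) and 1 fell (Kdr) in spontaneous tip cells, shares close to the 5.93% and 5.62% of all genes. Birc2 was lost without replicate 1 of spontaneous cGAMP.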
